A study of Mus musculus with 6 samples.

Results

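The 8 genes for the m6A readers Ythdc1, Ythdc2, Ythdf1, Ythdf2, Ythdf3, Igf2bp1, Igf2bp2 and Igf2bp3 were examined for YTHDC1 LACE-seq peaks in 6 mouse libraries. They were chosen by name, with earlier results of these data known, and are 8 of the 22367 protein-coding genes annotated on mm9. Of the 4 libraries of muscle stem cells cultured for 48 hr after isolation (ASC-48 hr), B1T1 and B1T2 came from 1 biological replicate and B2T1 and B2T2 from the other. The remaining 2 libraries, called replicate 1 and replicate 2 here, were made from C2C12, an established mouse myoblast line, with more input cells. All 6 samples carry the label WT and received no treatment other than UV crosslinking, and every pull-down used the same YTHDC1 antibody. The methods describe stem cells sorted by FACS for GFP or EYFP from hindlimb muscle of reporter mice, and the labels give neither age nor sex. LACE-seq reads stop at the crosslinked base, so a peak is taken to mark RNA bound to the precipitated protein. No library without the antibody or without YTHDC1 was analysed here, so background signal cannot be told apart from binding. RNA abundance was not analysed here either, although the study reports RNA-seq of both cell types. A peak thus cannot be read as binding per RNA molecule.

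m6A is a methyl mark on adenosine that writer enzymes place on RNA, mostly within a short consensus word around the modified base. Proteins with a YTH domain hold the mark directly in an aromatic cage. YTHDC1 is the YTH protein of the nucleus, where it acts in splicing and export, and YTHDC2 is a helicase best known from meiosis. YTHDF1, YTHDF2 and YTHDF3 are close paralogs in the cytoplasm, and YTHDF2 in particular recruits the deadenylase that shortens bound mRNA. The IGF2BP proteins bind RNA through KH and RRM domains, stabilise many mRNAs and have been described as m6A readers. Many RNA-binding proteins also bind the transcripts of their own gene, often at introns whose retention or inclusion leads to decay of the RNA, and the question asked of Ythdc1 was whether such peaks were recorded on its own RNA.

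Reads of complementary DNA carry the strand opposite to the gene, and peaks listed there are termed peaks on the RNA strand. Peaks of C2C12 replicate 1 count as shared where replicate 2 listed a same-strand peak with an overlap of 1 nt or more. Heights are reads per 20-nt bin, averaged where a peak spans several bins, and the lowest height listed was 6 in both C2C12 libraries and 4 or 5 in the ASC libraries. The whole lists held 7925 to 19448 peaks in ASC-48 hr and 60540 and 71992 in C2C12. Runs of at least 10 G on the strand of the reads lay within 20 nt of 8.31% to 13.2% of ASC peaks and of 1.17% and 1.03% of C2C12 peaks, and such peaks were counted apart. Among myogenic markers, Pax7 had a peak on the RNA strand in 4 of 4 ASC libraries, Myod1 and Des in 3 each, Myf5 in 1 and Myog in none. In C2C12, Des held 10 shared peaks and Myf5 held 2, and Myod1, Pax7 and Myog held none. Of the markers of other cells, Ptprc had no shared peak in C2C12 and none in ASCs, and Pecam1 and Pdgfra had 1 shared peak each in C2C12 and none in ASCs. Genes that held a shared peak were also longer, with a median of 31772.5 nt beside 12571 nt in genes without and 41315.5 nt over the 8 readers. The part of gene length in the counts was not tested.

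The sequences below are mm9 reference around the shared C2C12 peaks on which the results turn, written as DNA from 5′ to 3′ on the strand of the RNA. Capitals mark the 8 forms of the m6A consensus searched here, on the RNA strand only. The word GGACT is the best-known form, and the search also took its variants GGACA as well as GGACC, further the word GAACT with its own variants GAACA as well as GAACC, and finally the word AGACT besides the word TGACT. Ythdc1 and UTR peaks are cut to 30 nt, those of Ythdc1 because they lie in the untranslated part of an annotated decay transcript. The first group shows the 3 shared peaks of Ythdc1, the gene of the protein that was pulled down.
Ythdc1 intron 11, chr5:87257516-87257545, + strand: aaagccctttctttcaggtgtgtctctgga
Ythdc1 intron 11, chr5:87257664-87257693, + strand: GGACTgtttccaattttgtcaccgtgatgt
Ythdc1 intron 11, chr5:87258444-87258473, + strand: GAACTgttactatcatgttttataccggtc

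The next group prints pairs of shared coding peaks of Ythdf2 and Ythdf3, which both held shared peaks in the corresponding long exon. When aligned, the peaks of the first pair lay 76 nt apart and those of the second 29 nt. The stretches of the first pair are thus not aligned to each other. The pair at codons 338 and 325, 85 nt apart, is not printed.
Ythdf2 exon 4, chr4:131761481-131761540, - strand: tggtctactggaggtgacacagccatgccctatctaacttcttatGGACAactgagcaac
Ythdf3 exon 5, chr3:16103841-16103900, + strand: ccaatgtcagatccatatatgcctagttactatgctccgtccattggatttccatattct
Ythdf2 exon 4, chr4:131760321-131760380, - strand: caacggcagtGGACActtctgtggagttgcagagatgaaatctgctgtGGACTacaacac
Ythdf3 exon 5, chr3:16105121-16105180, + strand: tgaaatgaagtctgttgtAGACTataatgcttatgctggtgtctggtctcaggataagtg

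The last group holds the 3′UTR peaks of Ythdf2 and Igf2bp2, the highest shared intronic peak of Ythdf3, and a shared intronic peak of Igf2bp3 that shows how a repeated sequence looks.
Ythdf2 3′UTR, chr4:131742756-131742785, - strand: acacgatgacctgcaagaaaattaGGACTt
Igf2bp2 3′UTR, chr16:22059496-22059525, - strand: cttgctcttgtgtttcccttagagattttg
Ythdf3 intron 2, chr3:16085381-16085440, + strand: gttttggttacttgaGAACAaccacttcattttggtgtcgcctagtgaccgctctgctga
Igf2bp3 intron 2, chr6:49127581-49127640, - strand: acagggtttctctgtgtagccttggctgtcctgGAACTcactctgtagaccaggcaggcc

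In C2C12 the 8 genes held 49 peaks on the RNA strand in replicate 1 and 49 in replicate 2, with G-run peaks set aside, and 18 were shared. Shared peaks were found in 5 of the 8 genes, against 21.4% of all protein-coding genes. This share and every such share below count all annotated genes, including those not expressed in these cells. Such genes give no RNA to bind, though background or misplaced reads could still list peaks in them. A share over expressed genes may be higher and was not computed. Ythdf3 held 8 of them, Ythdf2 held 4, Ythdc1 held 3, Igf2bp2 held 2 and Igf2bp3 held 1, while Ythdc2, Ythdf1 and Igf2bp1 held none. Of all protein-coding genes, 8.24% held at least 3 shared peaks, 6.08% at least 4 and 2.76% at least 8. By position, coding exons held 6 of the 18 and 3′UTRs held 2, with 3 in an exon that only transcripts without an annotated full reading frame use, and 7 in introns. A shared peak in a coding exon or UTR was present in 3 of the 8 genes (15.9% of all protein-coding genes) and one in an intron of the coding transcripts in 4 of the 8 (10.3% of all).

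**Figure D1:**
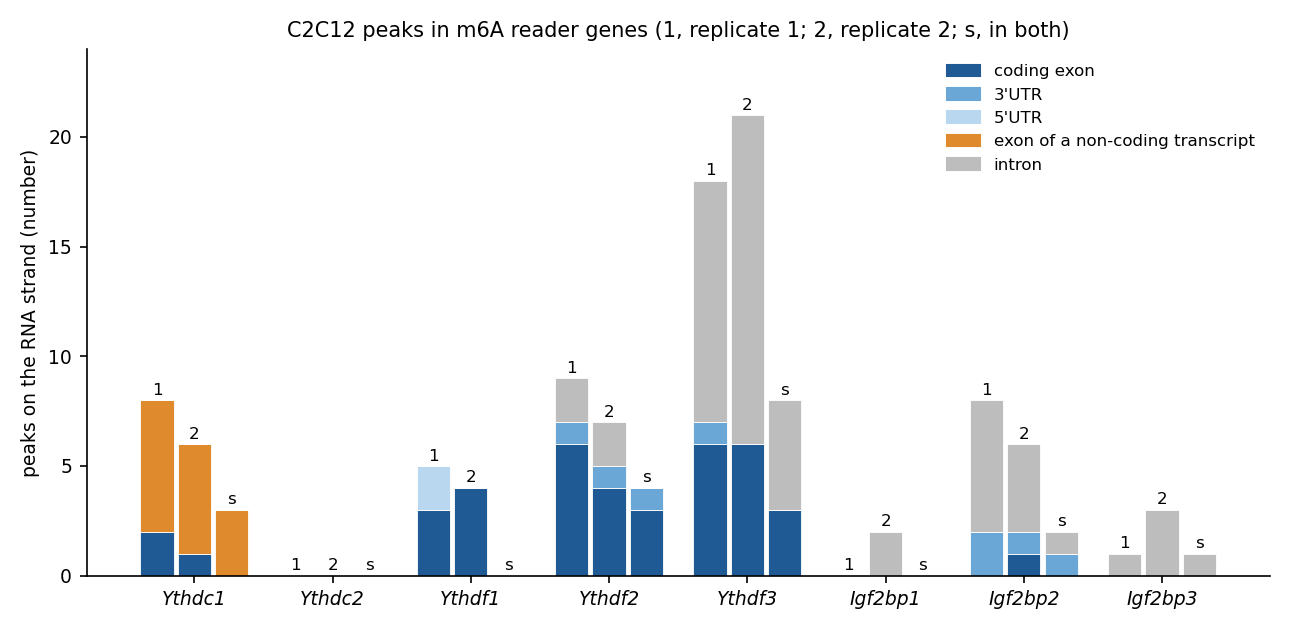
Number of C2C12 LACE-seq peaks on the RNA strand in each m6A reader gene (y axis), without G-run peaks, in replicate 1 (1), in replicate 2 (2) and in both (s), coloured by position in the gene. Ythdf3 has the tallest bars with 18 and 21 peaks, and Ythdc2 has no bar. All 3 shared peaks of Ythdc1 are classed as exon of a non-coding transcript, a class that includes annotated decay transcripts.

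Heights were low throughout. In replicate 1, 44 of the 49 peaks had fewer than 10 reads per bin and 23 stood at the lowest height listed, and in replicate 2 these numbers were 42 and 16. Of the replicate 1 peaks in the 8 genes, 36.7% were found in replicate 2, beside 45.2% over all protein-coding genes, and among peaks under 10 reads the shares were 34.1% and 38.6%. The mean height of the 18 shared peaks ran from 6.5 to 12, and 3 of them reached 10. The median height was 7 reads per bin in both libraries.

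**Figure D2:**
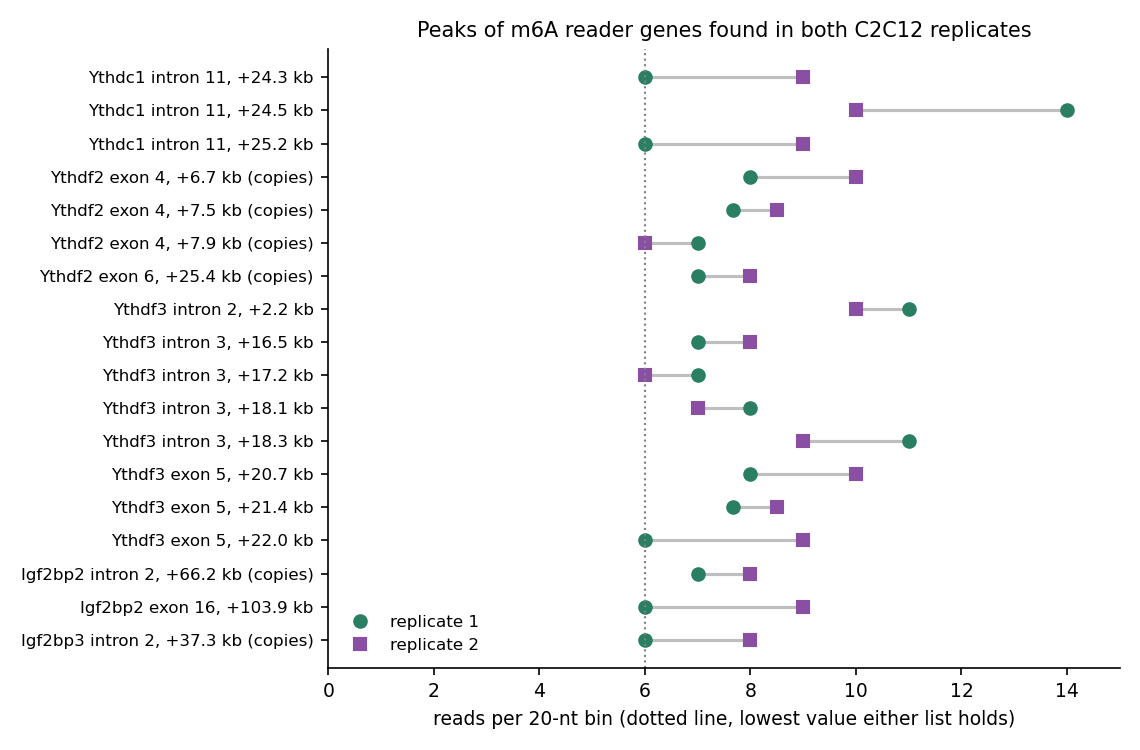
Reads per 20-nt bin (x axis) of the 18 shared peaks in C2C12 replicate 1 (circles) and replicate 2 (squares), each named by exon or intron and by its distance from the gene start, with "copies" where its first 20 nt occur elsewhere in the genome. Heights lie between 6 and 14, and the highest is the Ythdc1 peak with 14 and 10 reads.

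Ythdc1 (ENSMUSG00000035851.8, chr5:87233246-87265684, + strand), which encodes the protein pulled down, held 8 peaks in C2C12 replicate 1 and 6 in replicate 2. Intron 11 alone held 6 of the 8 and 5 of the 6, and none of the other introns among its 16 held a peak on the RNA strand in either library. This intron spans chr5:87257147-87259578, and its 2432 nt make up 7.5% of the gene. The 11 peaks occupy 8 distinct positions within 1180 nt, and the 20-nt sequence at each occurs once in the genome. All 11 fall within an exon of the transcript ENSMUST00000156363.1, annotated for nonsense-mediated decay, which reads 1358 nt into the intron and meets its stop codon 49 nt past the usual splice site. The remaining 1074 nt of the intron, towards exon 12, held no listed peak. A retained-intron transcript (ENSMUST00000151489.1) covers the whole intron. Another (ENSMUST00000148142.1) covers the peak at chr5:87257301, and a processed transcript (ENSMUST00000124123.1) the peak at chr5:87258461. Peaks from any of these RNAs and from the unspliced precursor cannot be told apart.

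The 3 shared peaks of Ythdc1 all lay in this intron. At chr5:87257681-87257720, 553 nt into the intron, replicate 1 had 14 reads per bin and replicate 2 had 10, or 12 ± 2.83 (SD, n = 2), which was the highest mean of the 18 shared peaks. A GGACT stood within 20 nt of it, at the 5′ end of the stretch printed above. The peaks at chr5:87257521-87257540 and chr5:87258461-87258480 had 6 reads in replicate 1 and 9 in replicate 2 each, or 7.5 ± 2.12 (SD, n = 2). Only the second of these had a word, GAACT. Over the 8 distinct positions in the intron, 5 had at least 1 word within 20 nt, GGACT in 3 and GAACT in 2. With at least 10 reads per bin required in both libraries 1 of the 3 shared peaks was left, and with a p of at most 1e-05 in both none was.

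**Figure D3:**
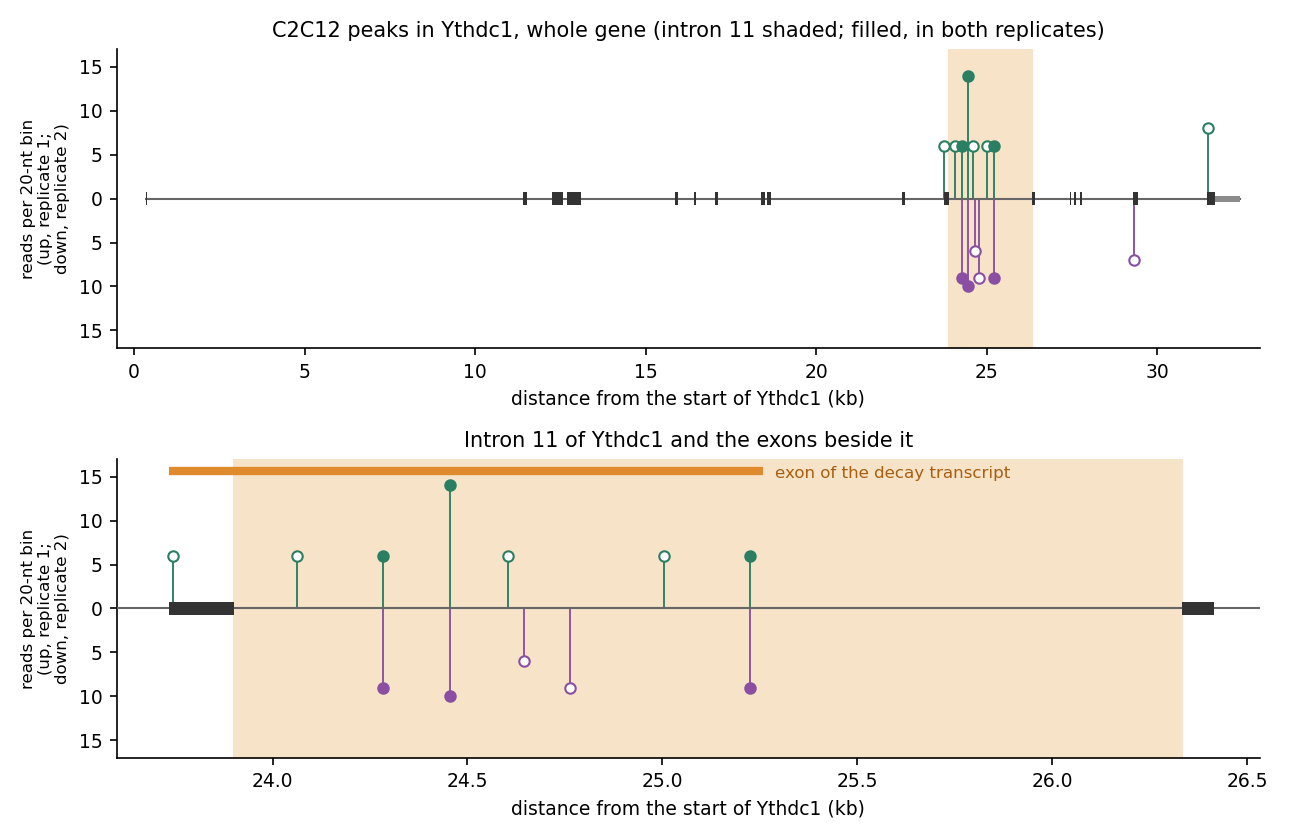
C2C12 peaks of Ythdc1 against distance from the gene start in kb (x axis), for the whole gene and for intron 11, with reads per 20-nt bin upwards for replicate 1 and downwards for replicate 2. Filled circles are peaks in both replicates, dark boxes coding exons and grey boxes UTRs. Shading marks intron 11, which holds 6 and 5 peaks, all within the exon of the decay transcript.

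Exons of the coding transcripts held peaks in 1 replicate alone. Replicate 1 had 6 reads per bin at chr5:87256981-87257000 in exon 11, next to the intron, and 8 at chr5:87264721-87264740 in exon 17. Replicate 2 had 7 at chr5:87262561-87262580 in exon 16. None of these exon positions was listed in the other library. Counted over either replicate, a setting chosen after seeing the data, Ythdc1 had 8 peaks in intron 11 and 3 in coding exons. Chosen likewise after seeing the values, the count of genes with at least 3 shared peaks that all lay in exons of non-coding transcripts was 4 of 1844 (0.217%), Ythdc1 among them. The criterion was shaped on Ythdc1 itself, and only genes with such annotated exons can meet it, so nothing is concluded from this share. In ASC-48 hr the gene had 1 peak in B2T1, of 5 reads at chr5:87246141-87246160 in coding exon 4, and none in B1T1, B1T2 or B2T2. No ASC library listed a peak in intron 11.

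Genes were ranked by how closely their shared peaks matched the 0 coding, 0 3′UTR, 0 5′UTR and 3 intronic peaks of Ythdc1, counting exons of non-coding transcripts with introns. The measure was the sum of absolute differences over these 4 classes in the shared C2C12 peaks, and 64 genes had the identical pattern at a difference of 0. The 5 closest in exon length to the 3305 nt of Ythdc1 were Spata5 (3295 nt), Atg16l1 (3394 nt), Clint1 (3400 nt), Vps41 (3195 nt) and Slc9a9 (3468 nt).

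Ythdc2 (ENSMUSG00000034653.8, chr18:44988319-45049374, + strand), the helicase, had no peak on the RNA strand in either C2C12 library. One peak of 4 reads in intron 7 was listed in ASC B2T2, at the lowest height of that list, and none in the other 3 ASC libraries.

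Ythdf3 (ENSMUSG00000047213.7, chr3:16083183-16117035, + strand), a cytoplasmic paralog, had the most peaks of the 8 genes, 18 in replicate 1 and 21 in replicate 2. The first 20 nt of each of its 8 shared peaks occur once in the genome, counting exact copies only. Introns held 5 of them. The highest, at chr3:16085401-16085420 in intron 2, had 11 reads in replicate 1 and 10 in replicate 2, or 10.5 ± 0.71 (SD, n = 2). In intron 3, 13623 nt long, replicate 1 had 9 peaks and replicate 2 had 14, of which 4 were shared. The highest shared one there, at chr3:16101441-16101460, had 11 and 9 reads, or 10 ± 1.41 (SD, n = 2), and no word within 20 nt.

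The single heights above these in Ythdf3 were each in 1 library. Replicate 2 had 13 reads at chr3:16102201 in intron 3, and replicate 1 had 12 in the 3′UTR at chr3:16114141. In exon 5, the long exon that carries most of the coding sequence, the shared peaks had 8 and 10 reads at codon 71, 7.67 and 8.5 at codon 325, and 6 and 9 at codon 498. The groups of heights overlap between replicates, and replicate 2 was higher at 4 of the 8 shared peaks of the gene and replicate 1 at the other 4. No ASC library listed a peak on either strand of Ythdf3.

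Ythdf2 (ENSMUSG00000040025.10, chr4:131740827-131768218, - strand), the reader tied to mRNA decay, had 9 and 7 peaks and 4 shared ones. In exon 4 the shared peaks had 8 and 10 reads at codon 85, 7.67 and 8.5 at codon 338, and 7 and 6 at codon 471. The fourth, at chr4:131742761-131742780 in the 3′UTR, had 7 and 8 reads, and both GGACT and GGACA lay within 20 nt of it. Unlike those of Ythdf3, all 4 begin with a 20-nt sequence found 2 or 3 times in the genome. The other copies lie on chromosome X, those of the coding peaks in the pseudogenes Gm8401 and Gm6823, and neither C2C12 library listed a peak at any of them. At codon 338, replicate 2 split the signal into 2 peaks, and the higher, 10 reads at chr4:131760761, has a sequence that occurs once. Only exact copies were counted, and 0 of the 4 shared peaks were left when a single occurrence of the first 20 nt was required. The ASC libraries had no peak on the RNA strand of Ythdf2, and B1T2 and B2T1 each had 1 of 5 reads on the other strand.

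**Figure D4:**
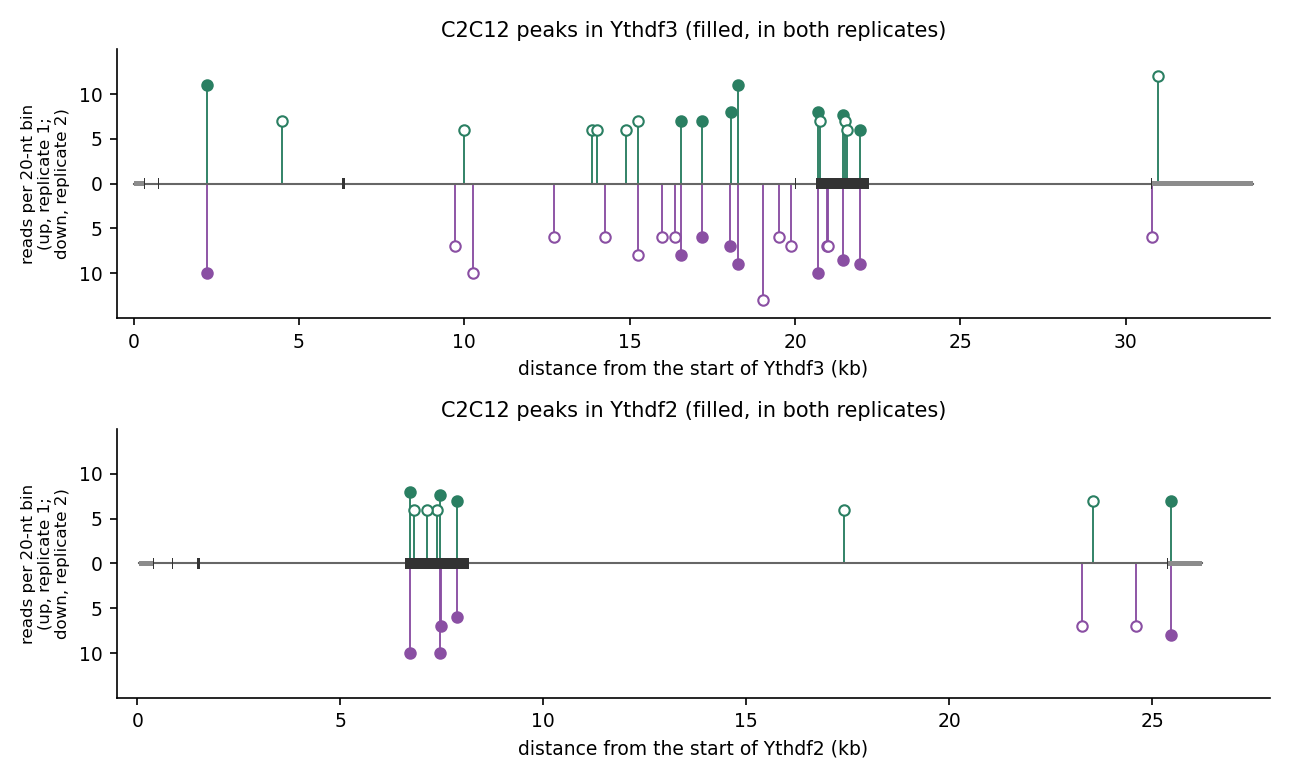
C2C12 peaks of Ythdf3 and Ythdf2 against distance from the gene start in kb (x axis), with reads per 20-nt bin upwards for replicate 1 and downwards for replicate 2, filled circles for peaks in both replicates, dark boxes for coding exons and grey boxes for UTRs. The long coding exon holds 3 shared peaks in each gene, and Ythdf3 also has peaks along intron 3.

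Ythdf1 (ENSMUSG00000038848.8, chr2:180639082-180655654, - strand), the third cytoplasmic paralog, had 5 peaks in replicate 1 and 4 in replicate 2 and no shared peak. Its exon 5, the counterpart of the long exons above, held 3 and 4 of them, all at 6 to 8 reads. The closest pair, with 8 reads in each replicate, lay 41 nt apart. Replicate 1 also had 10 and 6 reads in the 5′UTR at chr2:180655541 and chr2:180655581, where replicate 2 listed nothing. In ASCs the same 5′UTR had a peak of 5 reads at chr2:180655621-180655640 in both B2T1 and B2T2, and none in B1T1 or B1T2. This was the 1 position on the RNA strand of these genes, G runs and repeated sequence aside, that more than 1 ASC library listed.

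The coding sequences of the 3 paralogs were 70.6% (Ythdf1 and Ythdf2), 71.4% (Ythdf1 and Ythdf3) and 72.3% (Ythdf2 and Ythdf3) identical over aligned bases. When each shared coding peak of Ythdf2 was carried to the aligned position in Ythdf3, the nearest shared peak lay 76 nt away for codon 85, 85 nt for codon 338 and 29 nt for codon 471. In the last pair an aligned word, GGACT in Ythdf2 and AGACT in Ythdf3, stood downstream of the Ythdf2 peak and at the 5′ edge of the Ythdf3 peak, as the capitals above show. In Ythdf1, replicate 2 listed 6 reads at chr2:180646781, 2 nt from the position aligned to the codon 85 peak of Ythdf2. Replicate 1 listed 6 reads at chr2:180645621, 36 nt from that aligned to the codon 498 peak of Ythdf3. Other Ythdf1 peaks lay farther off. With peaks of either replicate counted, chr2:180646241 was 114 nt from the nearest in Ythdf2 and 130 nt in Ythdf3. For chr2:180646381 the distances were 20 and 167 nt. These distances describe the peaks listed in exons of 1521 to 1599 nt, and whether they are shorter than peaks placed freely would give was not tested.

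**Figure D5:**
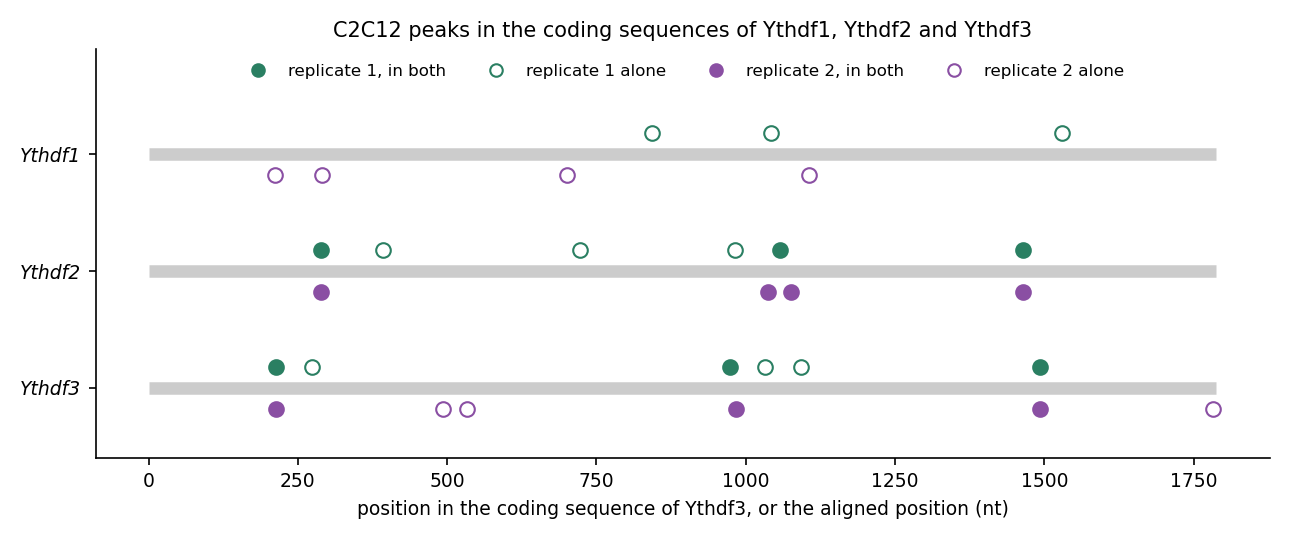
Positions of C2C12 peaks in the coding sequences of Ythdf1, Ythdf2 and Ythdf3, on the coding position of Ythdf3 or its aligned position in nt (x axis), with replicate 1 above and replicate 2 below each bar. Filled circles are in both replicates and open circles in 1, and Ythdf2 and Ythdf3 have filled circles near 3 positions each while Ythdf1 has open circles alone.

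Among the IGF2BP genes, Igf2bp2 (ENSMUSG00000033581.10, chr16:22059082-22163372, - strand) had 8 and 6 peaks. Its shared peak at chr16:22059501-22059520 in the 3′UTR had 6 and 9 reads, and its sequence occurs once. The other shared peak, at chr16:22097201-22097220 in intron 2, had 7 and 8 reads at a sequence that occurs 654 times. Igf2bp3 (ENSMUSG00000029814.8, chr6:49035220-49164953, - strand) had 1 and 3 peaks, and its shared peak of 6 and 8 reads at chr6:49127601-49127620 lies in a sequence that occurs 4917 times. Igf2bp1 (ENSMUSG00000013415.3, chr11:95818477-95867254, - strand) had none in replicate 1 and 2 in replicate 2, of 6 reads each, at sequences with 46702 and 70973 copies. Reads could be placed at up to 10 positions, so a peak at a repeated sequence may hold reads from elsewhere. Of these 3 genes, Igf2bp2 was thus the only one with a shared peak at a sequence found once.

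The IGF2BP genes also held the G-run peaks. An intronic peak of Igf2bp2 at chr16:22152001-22152020 had 8 reads in each of the 6 libraries and a sequence that occurs 1726 times. In Igf2bp3 the 4 ASC libraries listed a peak at chr6:49069181 with 6, 6, 5 and 6 reads and one at chr6:49162481 with 6, 5, 5 and 5, in the order B1T1, B1T2, B2T1 and B2T2, and C2C12 replicate 2 listed the latter with 7. These 3 positions were the ones in the 8 genes listed by all 4 ASC libraries, and with G runs set aside no position was. In an intron of Igf2bp1, B1T1 and B2T2, which come from different biological replicates, had 5 and 4 reads at chr11:95859741, where the sequence occurs 416 times.

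In all, the ASC libraries had 1, 0, 2 and 3 peaks on the RNA strand of the 8 genes in B1T1, B1T2, B2T1 and B2T2, in 4 of the 8 genes against 23.9% of all protein-coding genes. The sum of 6 fell to 3 without B2T2, the library with the longest list. ASC and C2C12 libraries differ in cell number, reads in peaks and lowest listed height, so the lower counts in ASCs and the cell type cannot be told apart.

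The m6A words were set beside the same count over all protein-coding genes. Among the 8 shared peaks of the readers in coding exons and 3′UTRs, 4 (50%, 95% interval 15.7 to 84.3%, exact Clopper-Pearson) had a word within 20 nt, beside 39.6% of 11892 such peaks in all genes. At sequences that occur once this order turned, with a word near 25% of the 4 remaining peaks of the readers and near 40.1% of those in all genes. GGACT alone was near 2 of the 8, beside 6.29% of all. Of the 10 shared peaks in introns and exons of non-coding transcripts, 7 (70.0%, 34.8 to 93.3%) had a word and 2 had GGACT, beside 39.1% and 5.28% over all genes. The 7 include the intronic peaks of Igf2bp2 and Igf2bp3, with GAACT in repeated sequences that occur 654 and 4917 times. The intervals are wide at such small numbers of peaks, cover counting error only and hold the value of all genes for any word. A match is a stretch of letters and not a mapped m6A site. By class, 16.7% of the readers' shared peaks (interval 3.58 to 41.4%) lay in exons of non-coding transcripts, beside 1.6% over all protein-coding genes. All 3 of them are the Ythdc1 peaks, neighbours in a single intron. The interval takes peaks as independent, so it does not measure a difference between the readers and all genes. The class also depends on which genes have non-coding transcripts annotated.

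Of 17 other genes of the m6A pathway, 10 held a shared C2C12 peak (21.4% of all protein-coding genes), 9 held one in a coding exon or UTR (15.9% of all) and 9 had a peak in at least 1 ASC library (23.9% of all). Among 9 writer genes, 3 held shared peaks: Rbm15, an adaptor of the complex, held 8, Wtap held 2 and Virma held 2, while the catalytic pair Mettl3 and Mettl14 held none. Both demethylase genes held some, with 18 in Fto, 16 of them intronic, and 4 in Alkbh5. Of 6 further genes described as readers, Prrc2a held 23, Hnrnpa2b1 held 3, Hnrnpc and Fmr1 held 2 each, Rbmx held 1 and Elavl1 none. The range across the pathway, from 0 to 23, was wider than that across the 8 readers, from 0 to 8.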

How the data were processed

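Per the labels, the authors trimmed reads with cutadapt 1.15 and aligned them to mm9 with Bowtie 1.2.3. Their methods allow up to 2 mismatches and 10 positions per read and call peaks per library with Piranha on 20-nt bins at a threshold of 0.001, settings they name for ASCs. The deposited signal, a read number in each bin, is not normalized, and the deposited p-value comes from the distribution fitted in that library. Total depth is not given in the sources used here, and reads in peaks numbered 57953 to 111729 (ASC) and 523067 and 607366 (C2C12).

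Peaks were assigned to GENCODE vM1 genes on NCBIM37, which is mm9, in the order coding exon, 3′UTR, 5′UTR, exon of a non-coding transcript, intron. Every transcript not annotated as protein-coding counts as non-coding here, also decay transcripts that have a reading frame. Exon numbers follow the transcript with the longest coding sequence. A peak that met several in the other replicate took their width-weighted mean. The tools were Python 3.11.15, pysam 0.24.0, Biopython 1.88, pandas 2.3.3, numpy 2.4.6, scipy 1.17.1 and matplotlib 3.10.9. Overlap, strand and class steps were tested on 4000 simulated peaks and passed 11 of 11 checks. A GRCm38 table served for synonyms of symbols only, and 17 of 17 pathway genes matched.

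No test was run, since no comparison between conditions was made. Described in full were the readers by role, for each its 2 shared peaks with the highest mean reads, every shared exonic and ASC peak of Ythdc1, the other pathway genes by counts, and the 5 genes closest to Ythdc1 in pattern. The members and lists were chosen with earlier results of these data known. The study's text calls the C2C12 libraries technical replicates and the labels call them biological, so their spread may be technical. Intervals cover counting error only.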

Additional observations from a re-analysis of the deposited data

Results flagged for a closer look

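Among 12 sets of values over the 4 ASC libraries, 4 had 1 library apart from the other 3. Chance marks about 1 in 20 sets of continuous values, a rate that does not hold for small whole numbers with ties. The peaks on the RNA strand numbered 1 in B2T1 for Ythdc1 and 1 in B2T2 for Ythdc2, with 0 in the other libraries. At the G-run peaks of Igf2bp3, B2T1 had 5 reads per bin at chr6:49069181 where the others had 6, and B1T1 had 6 at chr6:49162481 where the others had 5. Each gap is a single peak or read, and where 3 libraries tie, any difference in the other is marked.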

How the results depend on the processing

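No paired analysis was possible because the results are counts of listed peaks that come from no test. The readers' 18 shared C2C12 peaks became 2 with at least 10 reads per bin in both libraries, 1 with a p of at most 1e-05 in both, and 49 with either library alone. They became 79 over either replicate, a setting added after seeing the data. Genes with a shared peak went from 5 to 3 where the 20-nt sequence had to occur once, to 2 at 10 reads and to 1 at the stricter p, and ranged from 6 to 7 with 1 library alone. For Ythdc1, the 3 intronic shared peaks became 1 at 10 reads, 0 at the stricter p, 8 over either replicate and 5 to 6 with 1 library alone, and its 0 exonic ones became 3 over either replicate and 1 to 2 with 1 library alone. Counting exons of all transcripts before introns gave 3 exonic and 0 intronic. The 21.4% of all genes became 16.6% at sequences found once, 6.18% at 10 reads, 5.93% at the stricter p and 32.8 to 36.6% with 1 library alone. The share of exonic peaks with a word over all genes, 39.6%, became 65.8% within 50 nt, 14.5% in the 20 nt alone and 36.9% at the stricter p, and that of the readers, 50%, became 0.0% in the 20 nt alone, 75% within 50 nt and 25% of 4 peaks at sequences found once, where all genes had 40.1%. The 6 ASC peaks became 18 with G runs kept, when 3 positions were listed by all 4 libraries, and 0 at 6 reads or at the stricter p, and ranged from 3 to 6 without 1 library. Where the stricter settings lowered a count, peaks near the lowest listed height were left out by construction. Overlap by 10 nt gave 18 shared peaks, counting replicate 2's list 19 and adding 1000 nt to each gene 18, with 5 genes and 3 intronic Ythdc1 peaks wherever these were recounted. Heights of 4 to 14 reads limit every statement here to peaks above each list's lowest height.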

Other observations

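The RIP-qPCR primers listed with the study for 2 of these genes were placed on mm9. For both mRNAs the study reports less m6A and less bound YTHDC1, by qPCR in C2C12, after inhibition of the m6A writer. In its binding assay YTHDC1 was overexpressed with a tag. The reverse primer of Ythdf2 lies in exon 4, 54 nt from the shared peak at codon 85, and its forward primer in exon 3. Both Ythdf3 primers lie in exon 5, 94 and 236 nt from the shared peak at codon 325. These primer distances run from middle to middle. Replicate 1 alone also listed 6 reads at chr3:16104741-16104760, between the Ythdf3 primers, and 7 at chr3:16104681-16104700, just upstream of them. Peaks on the strand of the gene, which the counts above leave out, numbered 1 in C2C12 replicate 1 and 4 in replicate 2 over the 8 genes, against 49 and 49 on the RNA strand. In Ythdc1 it was 1 peak of 6 reads in replicate 2, at chr5:87255981 in intron 10, where the sequence occurs 46012 times.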
